A study of Mus musculus with 4 samples.

Results

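Basophils are rare granule-bearing blood cells of the myeloid lineage that carry IgE on a high-affinity Fc receptor and, once triggered, release histamine, lipid mediators, proteases and the type 2 cytokines IL-4 and IL-13. They depend on the transcription factor GATA2, can respond to IL-33 through its receptor ST2, and are recruited into liver and lung during type 2 inflammation. Here they were met as a minority among cells sorted to enrich group 2 innate lymphoid cells (ILC2s), lymphocytes without antigen receptors that release the same type 2 cytokines. The members described are the genes that the deposited cell type table listed for the cluster named Basophil: 275 genes of 1679 listed for any of 21 cell types (16.4%). A listed gene had a higher average in the named cells than in all other sorted cells.

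The cells came from wild-type BALB/c mice aged 8 weeks that received an intraperitoneal injection of PBS (control) or 0.5 µg recombinant IL-33 (rIL-33) on each of 5 days. Liver and lung cells positive for CD127, Thy1 and ST2 were sorted after exclusion of cells bearing CD3e, Ly6G, Ly6c, CD11b, CD45R, TER119 or TCRb, and were profiled by droplet-based 3' single-cell RNA sequencing. There were 4 groups of 1 library each, with liver and lung each taken after PBS and after rIL-33, and per the study's methods each group pooled tissue of 2 to 6 mice. The table pooled the 4 libraries, so every value below is a single value over all of them, with no replicate, no depth and no comparison of treatment or organ.

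The values used are shares of cells with a value above 0 for a gene, in the named cells and in the rest of the sort. They should not be read as shares of cells with a counted transcript, because the kind of value behind the table was not stated and the shares in other cells were high. *Cd3e*, part of the T cell receptor complex and a target of the sort, was above 0 in 81.6 to 83.4% of the cells outside each type that listed it. The cells were clustered on their own expression, so a difference between the cluster and the rest is a description of the cluster and was not tested.

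Basophils made up 1.07% of the sorted cells (standard error from rounding 0.0074 percentage points), a size solved from the shares themselves because the table gives no cell numbers. For any gene, the share in other cells plus the cluster's size times the difference of both shares must give the same share in all cells, whichever type lists the gene. The 21 solved sizes summed to 100.1% although no constraint was set, and for Basophil genes with several listings the shares in all cells differed from their mean by at most 0.06 percentage points. By size Basophil ranked 16 of the 21 types, above Endothelium cell (0.805%) and below gdT_TypeIII_ITGAE (1.28%), while the type named ILC2 held 43.2% of the cells and Macrophage 4.59%.

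Of 20 basophil identity genes, chosen with earlier results of these data known, 19 were listed for Basophil, all with a higher share there than in other cells. The count is therefore a description and no independent check of the name. The 3 marker genes that came with the name, *Ccl3*, *Il13* and *Fosl1*, were chosen on these data. They were listed as well and are described with their families. The remaining gene, *Il3ra*, was listed for no type. The background of 16.4% is over genes listed for any type, so for each list below the number listed for any type is given as well. The lists overlap, with 40 genes in more than 1 list. Identity genes recur in the lists of Fc receptors, cytokines, chemokines, granule genes and receptors, so the counts of these lists are not independent. For the 19 identity genes the median difference of shares was 65.8 percentage points. It was 33.3 over all 275 Basophil genes and 18.4 over all 4422 listings of the table (45.2 for Endothelium cell, 41.7 for Macrophage and 36.0 for Prolifelation cell). Of the 19, 13 were listed for Basophil alone, as were 60 genes in all (3.57% of the 1679). *Ms4a2*, the beta chain of the high-affinity IgE receptor, was above 0 in 98.2% of Basophil cells and in 4.4% of all others. *Gata2* was above 0 in 99.1% and 6.2%. These 2 differences were the widest of the 275, and *Gata2* had 1 other listing, in Endothelium cell, where the share was 84.5%.

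The proteases that give basophil granules their character followed. *Mcpt8*, a basophil protease used to mark the lineage in mice, was above 0 in 98.2% of Basophil cells and 12.8% of the rest. *Prss34*, a second basophil serine protease, was above 0 in 81.8% and 2.7%. *Cpa3*, a carboxypeptidase that basophils share with mast cells, was above 0 in 94.9% and 28.1%. All 3 were listed for Basophil alone, as were *Cd200r3* (93.1% and 17.6%), an activating receptor of basophils and mast cells, and *Cyp11a1* (99.1% and 12.6%), the enzyme that starts steroid synthesis from cholesterol.

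Markers of related myeloid lineages were mostly listed for no type, and Basophil held several of those that were, at shares above the background of 16.4%. Of 12 mast cell genes 3 were listed for any type and 2 for Basophil: *Slc18a2*, the vesicle transporter of histamine and other amines (92.2% and 33.2%), and *Cma1*, a mast cell chymase whose share was lower in Basophil (12.8%) than outside (48.9%). *Kit*, the stem cell factor receptor that mast cells keep, was listed for 4 other types and not for Basophil, and the other 9 mast cell genes were listed nowhere. Of 12 neutrophil genes 3 were listed for any type and 1 for Basophil (*Cxcr2*, 82.4% and 36.5%). Of 9 eosinophil genes 3 were listed for any type and all 3 for Basophil (*Siglecf*, 79.7% and 27.2%; *Ccr3*, 77.9% and 16%; *Alox15*, 66.9% and 15.7%), and these 4 neutrophil and eosinophil genes were listed for Basophil alone. Of 16 macrophage and monocyte genes 8 were listed for any type and 2 for Basophil, *Cd14* (85.7% and 32.8%) with a higher share and *Apoe* (28.1% and 29.8%) with a lower one. No gene of the T cell list (14 genes), the B cell list (10), MHC class II (7) or proliferation (12) was listed for Basophil, although 12, 9, 7 and 12 of them were listed for other types. Of the 14 ILC2 genes and the 13 NK and ILC1 genes that any type listed, Basophil listed *Hs3st1* (90.7% and 57.4%) and *Gzmb*, respectively. Of genes of other tissue cells, Basophil listed 2 of the 6 endothelial genes that any type listed (33.3%, against 16.4%; *Pecam1*, 62.4% and 47.0%, and *Fcgr2b*), the 1 hepatocyte gene listed for any type (*Trf*, the iron carrier transferrin, 85.7% and 32.4%), the 1 platelet gene listed for any type (*Itga2b*, 53.1% and 23.1%). No lung epithelial gene was listed for any type. *Itgam*, which encodes the CD11b protein removed by the gate, was listed with a share of 41.2% in Basophil and 45.9% outside. *Il1rl1*, which encodes the ST2 of the gate, and *Thy1* were listed for other types and not for Basophil.

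**Figure D1:**
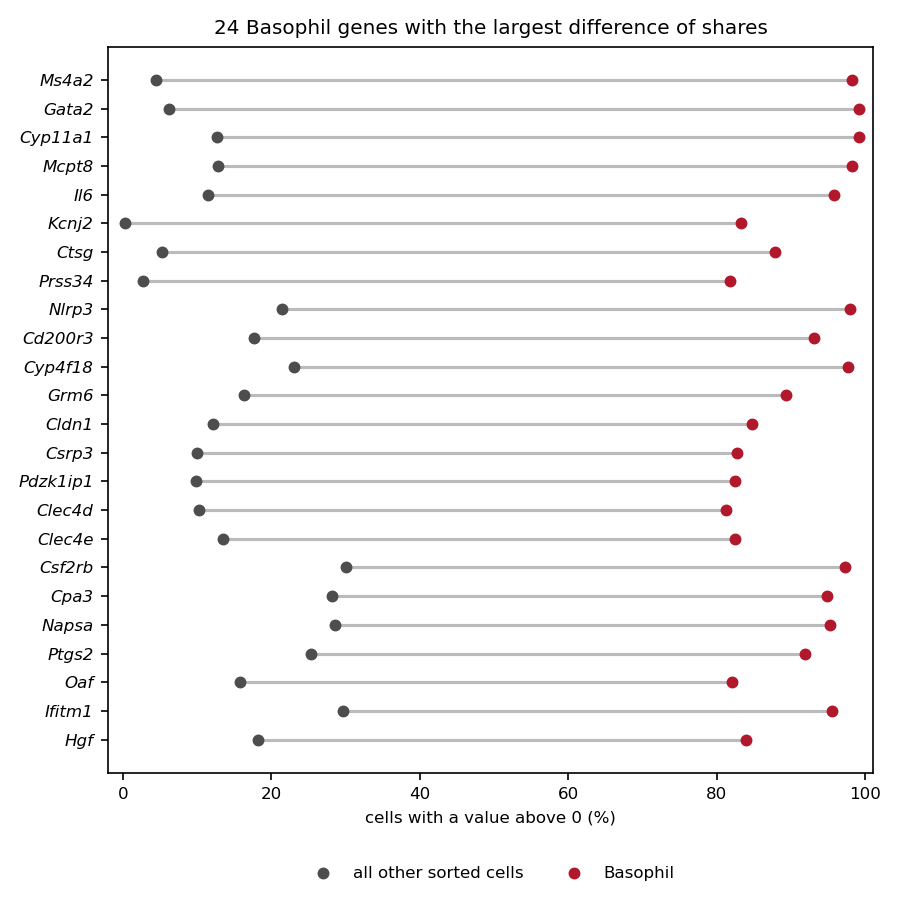
Share of cells with a value above 0 (%, horizontal axis) for 24 of the 25 Basophil genes with the largest difference of shares, in Basophil (red) and in all other sorted cells (grey). Basophil shares lie between 81.2 and 99.1%, and *Kcnj2* has the lowest share in other cells (0.3%).

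Among the 25 genes with the largest difference of shares, 19 were listed for Basophil alone. *Kcnj2*, an inward-rectifier potassium channel, was above 0 in 83.3% of Basophil cells and 0.3% of all others. *Ctsg*, the granule protease cathepsin G, was above 0 in 87.8% and 5.2%. *Nlrp3*, the inflammasome sensor, was above 0 in 97.9% and 21.4%. *Grm6* (89.3% and 16.3%), a metabotropic glutamate receptor, *Csrp3* (82.7% and 10.0%), a muscle LIM protein, *Cldn1* (84.8% and 12.1%), a tight junction protein, and *Pdzk1ip1* (82.4% and 9.9%) had gaps of 72.5 to 73.0 percentage points. *Clec4d* (81.2% and 10.3%) and *Clec4e* (82.4% and 13.5%) encode neighbouring C-type lectins that recognise microbial glycolipids. Further genes of the 25 were *Il6*, *Cyp4f18*, *Csf2rb*, *Napsa*, *Ptgs2*, *Oaf*, *Ifitm1* and *Hgf* beside the genes above. *Hgf* was the last gene inside the 25 (83.9% and 18.2%) and *Lilr4b* the first outside (100% and 34.7%), with differences of 65.7 and 65.3 percentage points.

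Because Basophil was small, a high share inside it did not mean that most cells above 0 were basophils. Combining the solved size with both shares, basophils were 75.0% of all cells above 0 for *Kcnj2*, with bounds of 71.7 and 78.5% from rounding. They were 24.7% (24.1 to 25.3%) of those for *Prss34*, 19.5% (19.1 to 19.9%) for *Ms4a2*, 15.4% (15.1 to 15.8%) for *Ctsg* and 14.7% (14.5 to 15.0%) for *Gata2*. *Chst13*, a sulfotransferase above 0 in 32.8% of Basophil cells and 1.8% of others, reached 16.5% by the same reckoning. These 6 genes were the only Basophil genes for which basophils made up 10% or more of the cells above 0. For *Mcpt8* the value was 7.67% (7.54 to 7.8%).

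Promoter sequence was set beside these listings, since GATA2 is the factor on which the lineage depends and *Gata2* stood near the top of the list. In the RefSeq promoter table (build GRCm38.p6, 250 bases before to 50 after each start), 212 of the 275 Basophil genes matched with 277 promoters. Exact GATA letters, TGATAA or AGATAA on either strand, were in 42 of these promoters (15.2%), in 17 of 62 promoters (27.4%) of genes listed for Basophil alone, in 11.9% of promoters of genes listed for any type and in 18.6% of all 32851 promoters. The share over all Basophil genes was therefore below that of all promoters. Of the 25 genes with the largest difference of shares 22 had a promoter in the table, and 9 of these held GATA letters while 13 did not, *Gata2*, *Cyp11a1*, *Mcpt8* and *Ctsg* among the latter. Promoters of 5 of the 9, those with a match that began 20 to 50 bases before the start, with *Mcpt8* as an example without them and the cytokine gene *Il13*, are printed 5′ to 3′ on the gene's strand with the GATA letters in capitals. They lie at chr19:11623670-11623969 (*Ms4a2*, minus strand), chr11:111065914-111066213 (*Kcnj2*, plus), chr17:25298144-25298443 (*Prss34*, plus), chr16:44943428-44943727 (*Cd200r3*, plus), chr3:20242132-20242431 (*Cpa3*, minus), chr14:56085148-56085447 (*Mcpt8*, minus) and chr11:53634653-53634952 (*Il13*, minus).
Ms4a2: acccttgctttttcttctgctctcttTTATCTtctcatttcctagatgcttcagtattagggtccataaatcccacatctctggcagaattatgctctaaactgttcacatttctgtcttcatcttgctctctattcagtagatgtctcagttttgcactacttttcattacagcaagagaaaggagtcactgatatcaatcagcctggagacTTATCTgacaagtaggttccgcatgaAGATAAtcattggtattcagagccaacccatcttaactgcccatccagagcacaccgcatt
Kcnj2: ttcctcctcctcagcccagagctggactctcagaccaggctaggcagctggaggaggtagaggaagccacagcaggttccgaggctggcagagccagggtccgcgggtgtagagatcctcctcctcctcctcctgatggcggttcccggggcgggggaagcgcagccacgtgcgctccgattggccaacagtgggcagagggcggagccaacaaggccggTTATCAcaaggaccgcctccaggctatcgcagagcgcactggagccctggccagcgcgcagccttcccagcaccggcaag
Prss34: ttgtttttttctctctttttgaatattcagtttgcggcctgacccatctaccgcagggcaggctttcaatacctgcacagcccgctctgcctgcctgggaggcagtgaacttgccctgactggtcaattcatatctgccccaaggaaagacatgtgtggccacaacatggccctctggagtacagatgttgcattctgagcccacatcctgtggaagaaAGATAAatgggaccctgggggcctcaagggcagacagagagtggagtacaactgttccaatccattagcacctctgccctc
Cd200r3: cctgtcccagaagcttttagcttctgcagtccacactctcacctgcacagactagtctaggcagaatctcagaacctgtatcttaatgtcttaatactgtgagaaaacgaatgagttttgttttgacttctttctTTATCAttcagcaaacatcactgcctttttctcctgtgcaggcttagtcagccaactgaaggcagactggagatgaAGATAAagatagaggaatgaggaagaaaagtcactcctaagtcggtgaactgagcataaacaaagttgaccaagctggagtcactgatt
Cpa3: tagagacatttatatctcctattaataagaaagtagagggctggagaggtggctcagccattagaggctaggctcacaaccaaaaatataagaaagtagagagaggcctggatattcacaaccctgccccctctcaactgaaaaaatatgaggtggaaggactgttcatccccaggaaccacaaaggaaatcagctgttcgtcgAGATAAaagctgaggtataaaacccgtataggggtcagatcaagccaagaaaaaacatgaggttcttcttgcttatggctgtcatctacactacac
Mcpt8: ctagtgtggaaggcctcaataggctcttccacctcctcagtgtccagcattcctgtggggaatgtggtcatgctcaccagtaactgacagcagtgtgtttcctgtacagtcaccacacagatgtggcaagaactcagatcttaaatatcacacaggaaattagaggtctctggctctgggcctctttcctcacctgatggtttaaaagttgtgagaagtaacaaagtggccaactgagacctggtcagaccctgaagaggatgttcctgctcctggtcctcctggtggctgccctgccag
Il13: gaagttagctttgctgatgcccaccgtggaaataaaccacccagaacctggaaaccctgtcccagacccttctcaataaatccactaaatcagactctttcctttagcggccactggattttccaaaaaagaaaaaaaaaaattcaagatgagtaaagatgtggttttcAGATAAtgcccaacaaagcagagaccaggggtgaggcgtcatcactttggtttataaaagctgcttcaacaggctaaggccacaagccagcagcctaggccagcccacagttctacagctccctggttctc

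In these sequences the *Ms4a2* promoter held 3 GATA matches, which began 224, 37 and 11 bases before the start. The single matches of *Kcnj2*, *Prss34*, *Cpa3* and *Il13* began 30, 31, 46 and 81 bases before it, and those of *Cd200r3* 115 and 39 bases before it. The other 4 of the 9 matched elsewhere: *Il6* 55, *Cyp4f18* 231 and *Grm6* 133 and 114 bases before the start, and *Nlrp3* 8 bases before it in 1 of its 2 promoters. A match that began 20 to 50 bases before the start, a window chosen after the positions were seen and so favoured by the sequences shown, was in 8 of the 62 promoters (12.9%) of genes listed for Basophil alone, in 12 of the 277 Basophil promoters (4.33%) and in 2.16% of all promoters. The 8 belonged to *Ms4a2*, *Kcnj2*, *Prss34*, *Cd200r3*, *Cpa3*, *C3ar1*, *Ccr3* and *Serpinb2*. The TATA box of a promoter commonly lies in the same stretch and its letters resemble these, and its part in the matches was not tested. AP-1 letters (TGANTCA, which reads as itself on both strands) were in 9.75% of Basophil promoters, 16.1% of those of genes listed for Basophil alone and 7.81% of all promoters. NFAT letters (GGAAA, either strand) were in 64.6%, 62.9% and 61.3%. No Basophil promoter held overlapping matches of different motifs, but such overlaps were rare everywhere. Of all 32851 promoters 5 held GATA letters overlapping AP-1 letters and 28 held GATA letters overlapping NFAT letters. AP-1 and NFAT letters cannot overlap as spelled. A match is a stretch of letters and not a measured binding site.

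**Figure D2:**
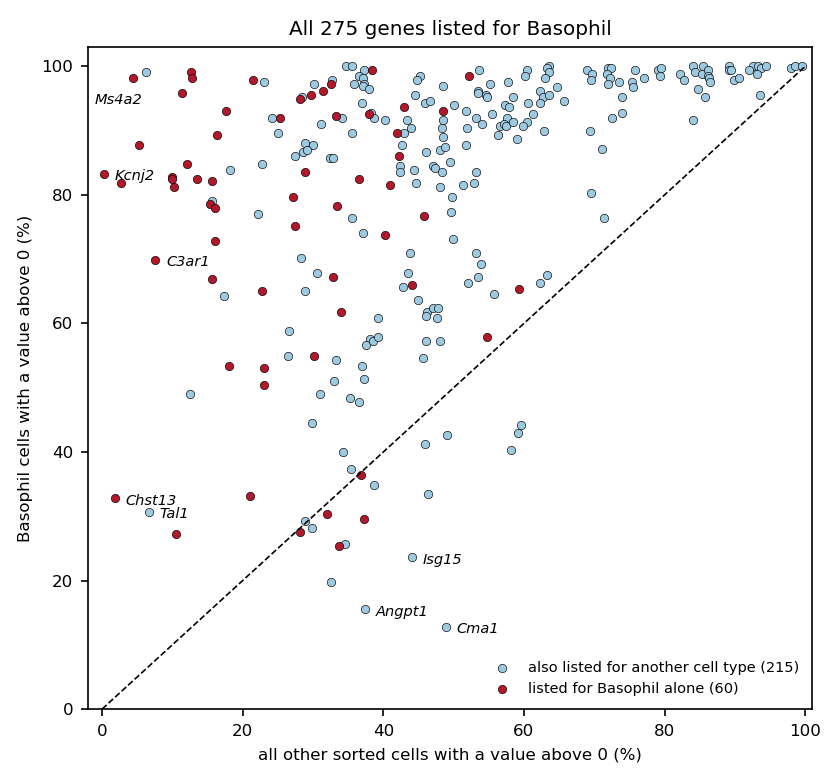
Share of cells with a value above 0 in Basophil (%, vertical axis) against that in all other sorted cells (%, horizontal axis) for each of the 275 Basophil genes, with the dashed line marking equal shares. Red points are the 60 genes listed for Basophil alone, and 18 genes in all lie below the line, *Cma1* the farthest.

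Over all 275 genes, the share in Basophil ran from 12.8 to 100% with a median of 89.6%, and the share in other cells from 0.3 to 99.5% with a median of 45.8%. A difference of 50 percentage points or more was found for 69 genes (25.1%), against 10.6% of all listings in the table. In 18 Basophil listings (6.55%) the share was lower in Basophil than outside although the average was higher. The same held for 1 of 291 Macrophage, 6 of 225 ILC1_ILC3, 4 of 403 MMP_LMPP and 14 of 397 Endothelium cell listings, and for most of the CD4 (100 of 131) and CD8_Naive (113 of 198) listings. *Cma1*, *Angpt1* (15.5% and 37.4%), an angiopoietin, and the interferon-induced *Isg15* (23.6% and 44.1%) had the lowest shares relative to other cells. At the top end, 11 genes were at 100% in Basophil, among them *Fcer1g*, *Lilr4b*, *Cd63*, *Fosb*, *Nfkbia*, *Tnfaip3* and *Dusp1*.

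Genes of Fc receptors for IgE and IgG and of their signalling were represented by 9 of 17, or of the 11 listed for any type (81.8%), against 16.4% of genes over the table. *Fcer1a*, the IgE-binding alpha chain, was above 0 in 93.7% of Basophil cells and 43.0% of others and was listed for Basophil alone, like *Ms4a2*. *Fcer1g*, the signalling gamma chain, was above 0 in 100% of Basophil cells and 63.6% of others. It was also listed for ILC1 (97.0%), ILC1_ILC3 (100%), Macrophage (99.3%) and NK (99.5%), where it pairs with other receptors. *Tyrobp*, a like adaptor, was at 99.7% and 63.3%. The low-affinity IgG receptors *Fcgr3* (91.9% and 38.7%) and *Fcgr2b* (89.6% and 43.0%), the adaptor *Lat2* (97.0% and 37.1%) and the kinases *Lyn* (56.7% and 37.6%) and *Btk* (58.8% and 26.6%) completed the group. The kinase *Syk* was listed for other types only.

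Of 26 cytokine and growth factor genes 20 were listed for any type and 7 (35% of the 20) for Basophil, against the background of 16.4%, with a median difference of 62.1 percentage points. Of these, *Il4*, *Il6*, *Osm* and *Hgf* were also counted among the identity genes and *Il13* among the marker genes of the name. *Il6*, an acute-phase cytokine, was above 0 in 95.8% of Basophil cells and 11.4% of others, and *Osm*, a cytokine of the same family, in 96.1% and 31.4%. *Il4* was above 0 in 75.2% and 27.5%. These 3 were listed for Basophil alone. *Il13* was above 0 in 84.8% of Basophil cells and in 22.7% of others, and its only other listing was the type named ILC2, at 32.4%. With the sizes taken into account, basophils were 3.89% (3.82 to 3.95%) of all cells above 0 for *Il13* and the ILC2 type 59.9%. *Il5*, the companion type 2 cytokine, was listed for ILC2 (33.7%) and not for Basophil. The growth factors *Csf1* (99.4% and 53.6%) and *Hgf* (83.9% and 18.2%) were shared with Endothelium cell (64.1 and 68.5%), and *Il1b* (86.6% and 28.6%) with Macrophage (96.5%).

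Of 22 chemokine genes 13 were listed for no type, and Basophil listed 5 of the other 9 (55.6%, against 16.4%), with shares of 87.8 to 99.4%. The macrophage inflammatory proteins *Ccl3* and *Ccl4*, which draw monocytes and lymphocytes, were above 0 in 98.5 and 99.4% of Basophil cells against 45.2 and 60.5% of others. *Ccl3* was listed for MMP_LMPP (72.4%) and NK (65.0%) as well, and *Ccl4* for NK (75.4%), ILC1 (70.5%) and CD8_Effector (53.7%), each at a lower share than in Basophil. *Ccl9* (97.3% and 32.6%) was listed for Basophil alone, whereas *Ccl6* (97.9% and 32.7%) was also listed for Macrophage (97.8%). *Cxcl2*, which draws neutrophils, was lower in Basophil (87.8%) than in Macrophage (93.5%), and the ILC2 type, at 57.8%, held 47.9% of all cells above 0 for it against 1.8% for Basophil. The 4 *Ccl* genes are neighbours on chromosome 11, within 91.8 kb at chr11:83572919-83664683 (GRCm38), and no other gene listed for any type lay between them. *Il4* and *Il13* share a second stretch of that chromosome, at chr11:53602982-53634702. Of the 275 Basophil genes 42 (15.3%) lay within 100 kb of another of them. In the larger set of genes listed for any type 36.9% lay as near to another of that set.

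**Figure D3:**
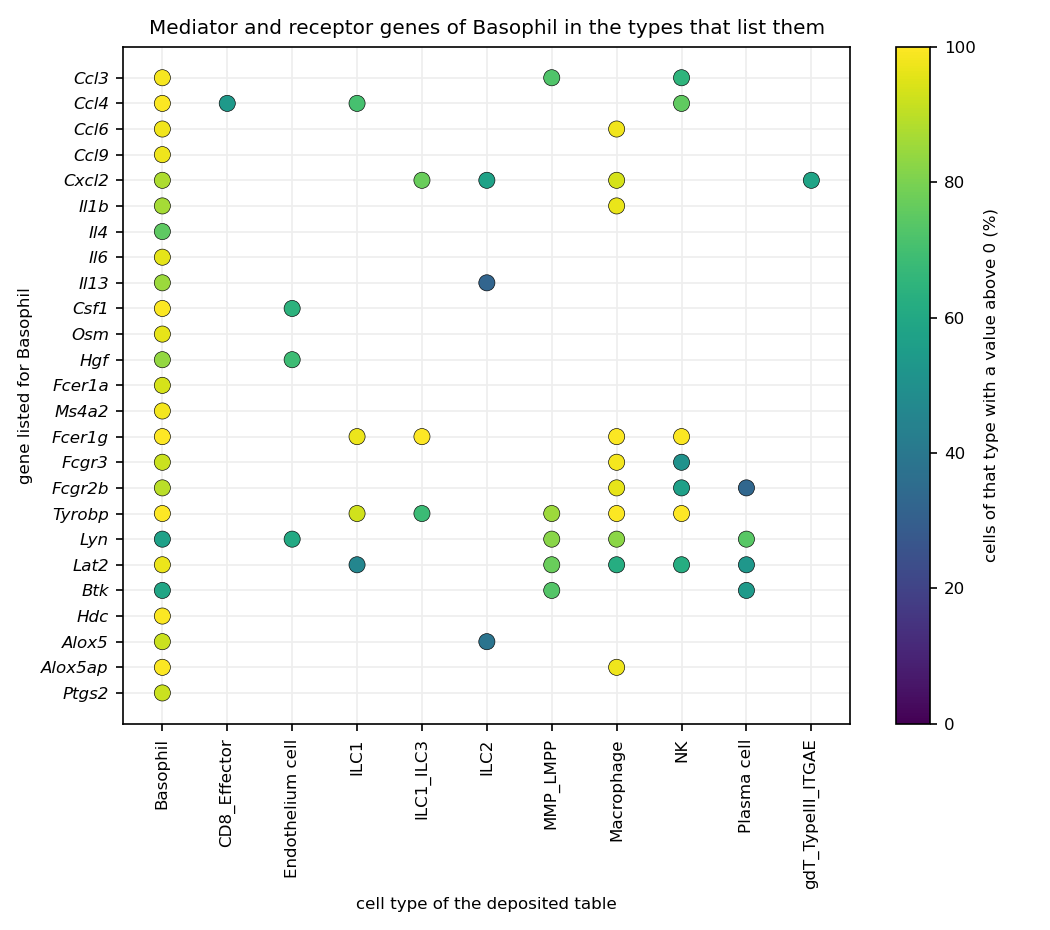
Chemokine, cytokine, Fc receptor and lipid or histamine mediator genes listed for Basophil (vertical axis) in each cell type that listed them (horizontal axis), coloured by the share of that type's cells with a value above 0 (%). A blank means that the type did not list the gene, not that the gene was absent there; *Ccl9*, *Il4*, *Il6*, *Osm*, *Fcer1a*, *Ms4a2*, *Hdc* and *Ptgs2* have a point for Basophil alone.

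Genes for histamine and eicosanoids were 4 of 16 listed (6 for any type, 66.7% of these against 16.4%), with shares of 91.9 to 99.4% in Basophil and 25.3 to 38.4% outside. *Hdc*, which makes histamine from histidine, was above 0 in 99.4% of Basophil cells and 38.4% of others, and *Ptgs2*, the inducible prostaglandin synthase, in 91.9% and 25.3%. Both were listed for Basophil alone. *Alox5* (91.9% and 34.1%) and its partner *Alox5ap* (99.4% and 37.3%) begin leukotriene synthesis. *Alox5* was shared with the ILC2 type at 38.6%, *Alox5ap* with Macrophage at 97.3%. Among granule and secretory genes 10 of 15 were listed, and 12 for any type (83.3% of these, against 16.4%). Beside the proteases above these were *Cd63* (100% and 35.6%), a granule membrane protein used to read out degranulation, *Gzmb* (91.9% and 53.2%), *Ctsd* (98.8% and 82.2%), *Lamp2* (61.2% and 46.1%), *Serpinb1a* (96.1% and 62.3%) and *Serpinb2* (73.7% and 40.3%).

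Receptors listed for Basophil included *Csf2rb* (97.3% and 30.1%), the beta chain common to IL-3, IL-5 and GM-CSF, and *Csf2rb2* (89.6% and 25%), a beta chain for IL-3, which were otherwise listed for Macrophage only (85.3 and 61.7%). *Il18r1* (92.8% and 73.9%) completed the 3 of 25 cytokine receptors (12 listed for any type), and was listed for 7 further types. Chemokine receptors were 5 of 18 (16 listed for any type, 31.2% of these): *Ccr1* (72.8% and 16.1%), *Ccr3* and *Cxcr2* for Basophil alone, *Ccrl2* (92.5% and 55.5%), and *Cxcr4* (98.2% and 86.3%), which 9 other types listed. Paired activating and inhibitory receptors were 7 of 16 (11 listed for any type, 63.6% of these), with a median difference of 65.3 percentage points, among them *Lilrb4a* (98.5% and 36.6%), *Pira2* (79.1% and 15.7%) and *Pirb* (51.0% and 33.0%). *C3ar1*, the receptor of complement fragment C3a, was above 0 in 69.9% of Basophil cells and 7.6% of others, and *C5ar1*, that of C5a, in 33.1% and 21.1%. Both were listed for Basophil alone. *Itga2*, the collagen receptor CD49b used to sort basophils, was above 0 in 92.8% and 38.2%, and was also listed for ILC1 (65.7%) and NK (65.4%). With *Itga2b*, *Itgam*, *Itgb1* (89.9% and 69.4%), *Cd9* (99.7% and 72.4%) and *Cd69* (99.4% and 86.1%) it made up the 6 of 20 integrin and adhesion genes listed, against 14 for any type (42.9% of these). Reads of near-identical neighbours such as *Lilr4b* and *Lilrb4a*, *Csf2rb* and *Csf2rb2*, or *Pira2* and its family may be split or lost in counting, so values of these genes are uncertain.

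Transcription factors listed for Basophil were 9 of 25 (17 listed for any type, 52.9% of these against 16.4%), and none of them for Basophil alone. The myeloid factors *Spi1* (88.1% and 28.8%) and *Cebpa* (77.0% and 22.2%) were higher still in Macrophage (97.8 and 97.3%). *Tal1*, a partner of GATA factors, was above 0 in 30.7% and 6.7%, and in 84.9% of Endothelium cell. *Nfil3* (97.3% and 55.2%), *Runx2* (93.1% and 51.8%), *Zeb2* (90.4% and 48.3%), *Cebpb* (97.9% and 82.7%) and *Id1* (57.9% and 39.3%) made up the rest with *Gata2*. *Gata3*, the corresponding factor of ILC2s, was listed for ILC2 (93.0%) and gdT_TypeII (97.6%) and not for Basophil.

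Genes of the AP-1 family and immediate early, feedback, survival, heat shock and interferon-response genes were also listed. Of 12 AP-1 family genes 8 were listed for any type and 4 for Basophil: *Fosl1* (89.6% and 42.0%) for Basophil alone, and *Fos* (97.9% and 89.8%), *Fosb* (100% and 84.0%) and *Jun* (97.6% and 73.5%) together with 5 other types each. Other immediate early genes were 9 of 20 (18 listed for any type), with a median difference of 9.5 percentage points, and their shares outside Basophil ran from 37.2% (*Ier3*) to 93.7% (*Ier2*). *Ier3* (97.3% and 37.2%), *Egr1* (98.5% and 60.2%) and *Egr3* (85.1% and 49.5%) had the widest gaps, and *Gadd45a* was lower in Basophil (40.3%) than outside (58.2%). Feedback genes of NF-κB were 4 of 16 (6 listed for any type) and dual-specificity phosphatases and their relatives 2 of 12 (8 for any type), with median differences of 13.8 and 14.6 percentage points. The kinases *Pim1* (99.4% and 89.2%) and *Pim3* (90.4% and 51.9%) were the 2 genes listed of 7 in the SOCS and PIM group, all 7 listed for some type (28.6%). *Pmaip1* (76.4% and 35.6%) and *Cdkn1a* (91.9% and 57.6%) were the 2 of 10 genes of survival and arrest, 7 of which any type listed (28.6% of these). Heat shock genes were 3 of 11 (10 listed for any type, 30.0% of these), with a median difference of 3.1 points. Interferon-response genes were 3 of the 14 listed for any type (21.4%, near the background of 16.4%), namely *Ifitm1* (95.5% and 29.7%), *Ifitm2* (94.3% and 36.9%) and *Isg15*, and 11 others were listed for other types only.

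Most Basophil genes were listed for further cell types. Listing for Basophil alone held for 60 genes, which is 3.57% of all 1679 genes and 21.8% of the 275. A single listing was found for 37.8% of the 1679 genes. Listing for 5 types or more was found for 92 Basophil genes (33.5%), against 16.6% of all genes. Genes with many listings fill more of any type's list. These comparisons with all genes therefore cannot show whether Basophil shared more of its genes than other types did. Of the 215 genes that another type also listed, 102 had a higher share in Basophil than in any other type that listed them. Macrophage, which listed 17.3% of all 1679 genes, shared the most, 75 genes. These are 27.3% of the Basophil genes and 25.8% of the Macrophage genes, and in 34 of these the share was higher in Basophil. ILC1_ILC3, which listed 13.4% of all genes, shared 60 (21.8% and 26.7%). MMP_LMPP and Endothelium cell shared 57 (20.7% and 14.1%) and 56 (20.4% and 14.1%), below the 24.0 and 23.6% of all genes that these long lists held. Prolifelation cell, with 30.6% of all genes, shared 30 (10.9% and 5.85%). The type named ILC2 shared 24 (8.73% and 17.6%), near the 8.10% of all genes that it listed and the 16.4% that Basophil listed, with the higher share in Basophil for 21 of them, *Il13*, *Alox5*, *Klf5* (94.3% in Basophil and 66.6% in ILC2) and *Cxcl2* included.

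**Figure D4:**
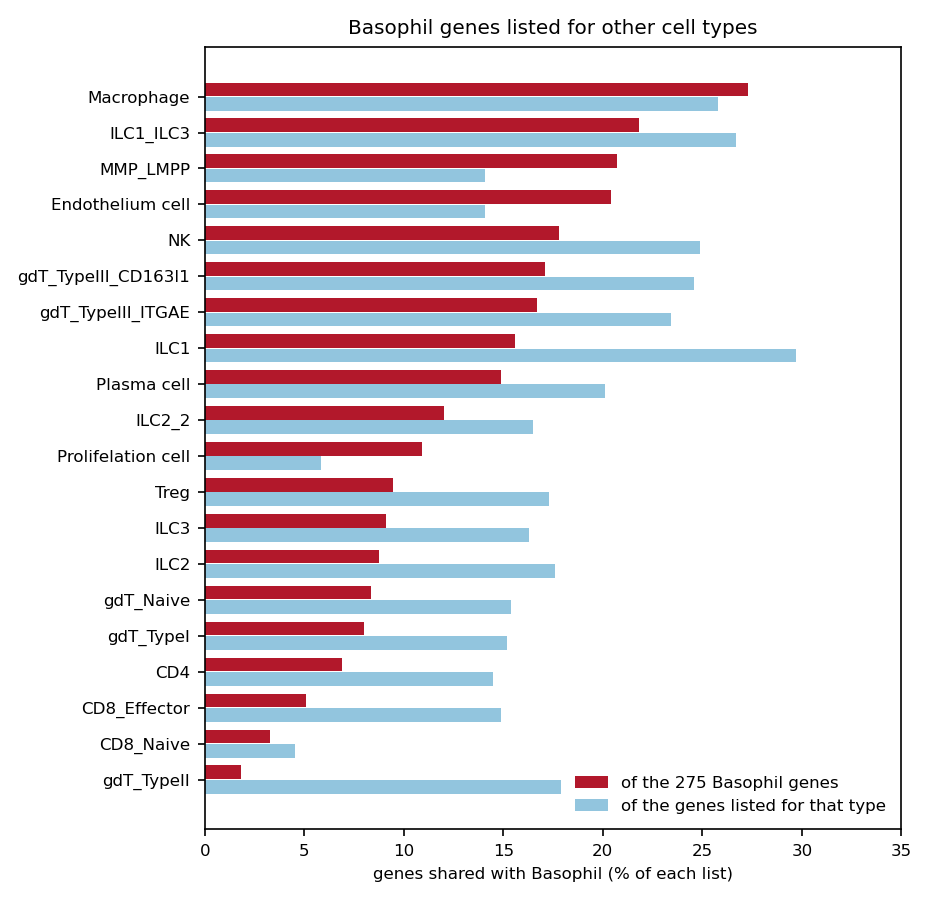
Genes listed both for Basophil and for another cell type, as a percentage of the 275 Basophil genes (red) and of that type's own genes (blue), by cell type. Macrophage shares the most Basophil genes (27.3%), while ILC1 has the largest part of its own list in common (29.7%).

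A second table compared 10 subclusters, numbered 0 to 9, of the cells that remained as ILC2s after the study had removed cells with markers of other lineages, the IgE receptor among them. Of the Basophil genes 132 were among the 820 genes in both tables. Subcluster 7 listed 53 of these (40.2%), against 20.2% of all 820 genes. Subclusters 1 (39 genes, 29.5% against 14.0%), 3 (37 genes, 28.0% against 14.9%) and 8 (36 genes, 27.3% against 13.8%) followed. Where a share at least 10 percentage points higher was required in both tables, 97 Basophil genes and 679 genes in all remained. Of the 97, subcluster 7 then listed 37 (38.1% against 20.3% of the 679), subcluster 1 listed 30 (30.9% against 13.3%), subcluster 8 listed 29 (29.9% against 14.1%) and subcluster 3 listed 12 (12.4% against 7.81%). By the unfiltered listings subcluster 4 was the reverse, with 25 genes (18.9%) against 55.0%. In subcluster 5 (26 genes, 19.7% against 14.9%), 22 of the genes had a lower share inside the subcluster than in other ILC2s, for example *Ctsd* (33.8% and 78.5%) and *Pim1* (48.3% and 86.4%). In the unfiltered listings subclusters 9, 6, 2 and 0 were closer to the background. They listed 18 (13.6% against 8.05%), 15 (11.4% against 9.15%), 14 (10.6% against 7.20%) and 13 genes (9.85% against 10.7%). With the filter subcluster 9 listed 17 of the 97 genes (17.5% against 8.69%), which was farther from the background than subcluster 3. The genes that subcluster 7 had in common with Basophil included *Fcer1g* (above 0 in 32.0% of subcluster 7 and 5.2% of other ILC2s), *Tyrobp* (26.5% and 3.2%), *Napsa* (38.5% and 9.8%), *Ier3* (25.5% and 4.9%), *Il4* (41.5% and 22.3%), *Osm* (29.5% and 13.1%), *Alox5* (43.5% and 22.3%) and *Il13* (60.5% and 36.6%). Of the 25 genes with the largest difference of shares in Basophil, 24 were listed for no subcluster, *Ms4a2*, *Gata2*, *Mcpt8*, *Prss34* and *Kcnj2* among them, and *Napsa* was the exception. By comparison, 132 of all 275 Basophil genes and 820 of all 1679 genes were listed for some subcluster. Further down the ranking *Lilr4b* was listed for subclusters 3 and 8 (25.7 and 36.0%), while *Ccl3*, *Ccl4*, *Csf1* and *Fosl1* were listed for none. *Ccr3* (28.5% and 8.4%) and *Itga2* (34.4% and 12%) were listed for subcluster 1 alone. Shares of the 2 tables are not on a common footing: *Fcer1g* was above 0 in 63.6% of the cells outside Basophil in the first table. Whether the same or different cells carry these genes was not tested.

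**Figure D5:**
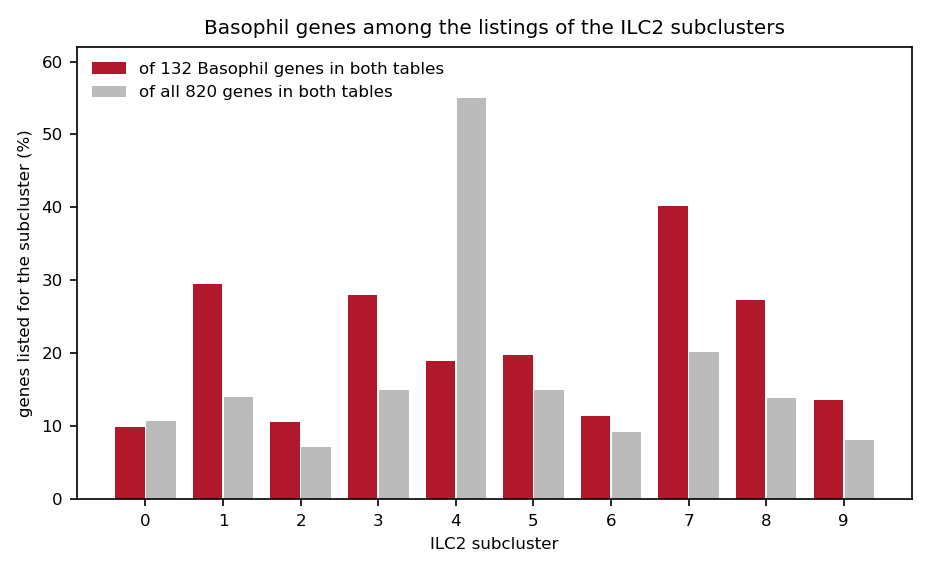
Percentage of the 132 Basophil genes found in both tables (red) and of all 820 genes found in both tables (grey) that each ILC2 subcluster listed (horizontal axis, subcluster number). The red bar is highest for subcluster 7 (40.2%), and subcluster 4 has the largest grey bar (55.0%).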

How the data were processed

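Cells of 4 libraries (1 per group, grouped by the labels) were aligned by the authors to mm10 with Cell Ranger, per the labels, and clustered and annotated with Seurat. Their flow cytometry gates excluded dead cells and doublets, and no doublet caller could be run on tables without cells. The deposited marker tables give each gene's fraction of cells above 0 within a cluster and within the remaining cells, with 3 decimals, pooled over libraries. Fold changes and p-values in the deposited tables are the authors' own comparisons of each cluster with the rest and were not used, apart from a check that 0 listings had a lower average inside the cluster. The larger share of a listing was never under 25.0%, so a gene that is not listed may be lower, rare or untested. There were 0 further columns of values per sample. Depth was unknown.

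Cluster sizes were solved by least squares over 1045 genes with at least 2 listings, with errors propagated from rounding, and the fit was tested on simulated data. Bounds on shares of cells above 0 combine rounding with 2 standard errors of the size. The 34 gene lists and the members were chosen with earlier results of these data known. Genes were named by list, or as the 25 with the largest difference of shares, a ranking used in place of a planned ranking by fold change, plus a few chosen after their values were seen. Of the 25, 1 is not reported here. Gene positions came from GENCODE M21 (GRCm38, the same assembly as mm10) and promoters from RefSeq (GRCm38.p6). Neighbours were genes within 100 kb. Python 3 with pandas and numpy was used. Alternatives were filters on the shares, other size fits and promoters of genes listed for Basophil alone. No p-value was computed, since cells are not replicates and each group held 1 library.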

Additional observations from a re-analysis of the deposited data

How the results depend on the processing

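Requiring a share at least 10 percentage points above that of other cells left 231 of the 275 Basophil genes, 19 of the 19 identity genes and 71 genes listed for Basophil alone, since other types lost listings too. Under this filter 12 instead of 37 Basophil genes were listed for ILC2 subcluster 3, the only count among the alternatives to move by more than 1.5 times. Of the subclusters the alternatives covered 7, 1, 3 and 8 only. Counts of subclusters 5 (26 to 1), 0 (13 to 7) and 2 (14 to 8), which were not among them, moved by more than 1.5 times as well. Requiring only a higher share, an alternative added after the data were seen, left 257. The solved size of Basophil was 1.06 to 1.08% in the other fits. Restricting promoters to genes listed for Basophil alone moved the share with AP-1 letters from 9.75 to 16.1% and with GATA letters from 15.2 to 27.4%, and of the 28 alternatives the other 25 moved no result beyond its limit. Planned filters on the authors' log2 fold change and adjusted p-value were not run, since those columns hold the authors' own comparisons. No paired analysis was possible because the tables pool the libraries and each group holds 1. The tables give neither depth nor cell numbers, and no counting error is given.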

Other observations

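The remaining genes listed for Basophil alone included metabolite and monoamine receptors. *Hcar2*, a receptor for ketone bodies and nicotinic acid, was above 0 in 92.5% of Basophil cells and 37.9% of others, *Htr1b*, a serotonin receptor, in 83.6% and 28.9%, and *Adora2b*, an adenosine receptor, in 65.1% and 22.7%. *Acod1*, which makes itaconate in activated myeloid cells, was at 93.1% and 48.5%, *Aqp9*, a glycerol channel, at 67.2% and 32.9%, *Cdh1*, the adhesion molecule E-cadherin, at 81.5% and 40.9%, and *Bmp4*, a growth factor, at 27.2% and 10.5%. These genes were chosen after their values were seen.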
